A study of Bos taurus with 2 samples.

Results

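CpG methylation of 10 genes of the osteoclast was examined in cattle bone. They were the genes of the RANK signalling axis (TNFSF11, TNFRSF11A, TNFRSF11B and NFATC1), of precursor fusion (DCSTAMP and OCSTAMP), of bone resorption (CTSK, ACP5 and MMP9) and of the calcitonin receptor (CALCR). The 10 were given as a list of names by what they are known to do, with no methylation value in the rule, and were 10 of 36056 annotated genes on chromosomes 1 to 29 and X. They were chosen with earlier results of these data known. The data were whole-genome bisulfite sequencing (WGBS) of 2 bone samples, labelled as bone of female Holstein cattle, which make up 1 group without treatment and are named here Bone_1 and Bone_2. The labels do not say whether they came from separate animals, so an SD here may hold technical spread alone. In DNA from a whole tissue, a share of cells with an unmethylated gene and partial methylation in every cell cannot be told apart.

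Osteoclasts are the multinucleated cells that resorb bone, and they arise from the monocyte and macrophage lineage in marrow. RANKL, the product of TNFSF11, is made by osteoblast lineage cells and other stromal cells and binds RANK, the product of TNFRSF11A, on the precursors, while osteoprotegerin, the product of TNFRSF11B, is a soluble decoy receptor that captures RANKL. RANK signals through TRAF6 and NF-kappaB to NFATC1, the transcription factor that drives the later osteoclast genes. Low methylation at the start of a gene is a common feature of CpG islands, whether or not the gene is in use, whereas CpG-poor gene starts more often differ between cell types.

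Each gene was placed by its position in a RefSeq table of the ARS-UCD2.0 assembly, and methylation was read from the calls at those positions. The submitters' processing notes name the build ARS-UCD1.2. The placement was checked on the calls themselves, and the planned check against a genome sequence was not run, since no sequence was at hand. On 29 of 30 chromosomes, and not on the other, the last annotated gene ended at or before the last CpG site. At the ends of all 21162 protein-coding genes, methylation was 19.2%, against 62.2% at 2500 to 3000 bp outside the ends. Around each of the 10 genes, the ends of the 33 to 339 protein-coding genes within 5 Mb had their lowest methylation from 250 bp outside to 150 bp inside the annotated ends, and their highest CpG density from 50 to 250 bp inside. The position table carries no strand. A window from 1000 bp outside to 500 bp inside was therefore read at both ends of each gene, and the end with more CpG sites is called here the CpG-denser end. It was chosen by CpG number alone, and that it is the transcription start was not tested.

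Bone_1 held 462047525 calls on chromosomes 1 to 29 and X and Bone_2 held 406703424, with 72.3% and 58.7% of them methylated. Gene bodies and most 1 kb windows below therefore start from a lower level in Bone_2. At the CpG-denser end, the medians over protein-coding genes were 12.8% in Bone_1 and 17.1% in Bone_2. At the CpG-denser end, 2 of 6 readable osteoblast markers were under 20% in both samples (SP7 and COL1A1), as were 0 of 4 osteocyte markers, 3 of 8 white blood cell markers (CD14, LCP1 and CORO1A), 1 of 5 red blood cell markers, 4 of 4 cartilage markers, 0 of 4 fat cell markers and 2 of 4 skeletal muscle markers, beside 51.1% of protein-coding genes. The 4 cartilage markers had 83 to 135 CpG sites, a class in which 79.8% of protein-coding genes were low, and the 8 osteocyte and fat cell markers had 9 to 29, where 0.495% (under 20 sites) and 20.1% (20 to 59 sites) were. Methylation at these ends does not measure expression, so the label of the tissue was not tested by them.

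At the CpG-denser end, 6 of the 10 genes were under 20% methylated in both samples, namely NFATC1, TNFSF11, CALCR, ACP5, TNFRSF11B and MMP9. Of all 35375 annotated genes with at least 20 calls at that end in each sample, 34.9% were, and of protein-coding genes 51.1%. No gene of the list was low at the other end, where the medians were 84.6% in Bone_1 and 63.2% in Bone_2. CpG number went with the level. Of the 6 genes with 60 or more CpG sites in the window, 5 were low in both samples, beside 79.8% of the protein-coding genes of that class. With 20 to 59 sites 1 of 3 was low, which was MMP9, beside 20.1%. CTSK, with 13 sites, was not low, beside 0.495% low in its class. In order of the mean, the levels ran from NFATC1 through TNFSF11, CALCR, ACP5, TNFRSF11B, MMP9, TNFRSF11A, OCSTAMP and CTSK to DCSTAMP. Of neighbours in this order, TNFSF11, CALCR and ACP5 overlapped in their sample values, as did OCSTAMP and CTSK, and the other neighbours did not.

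**Figure D1:**
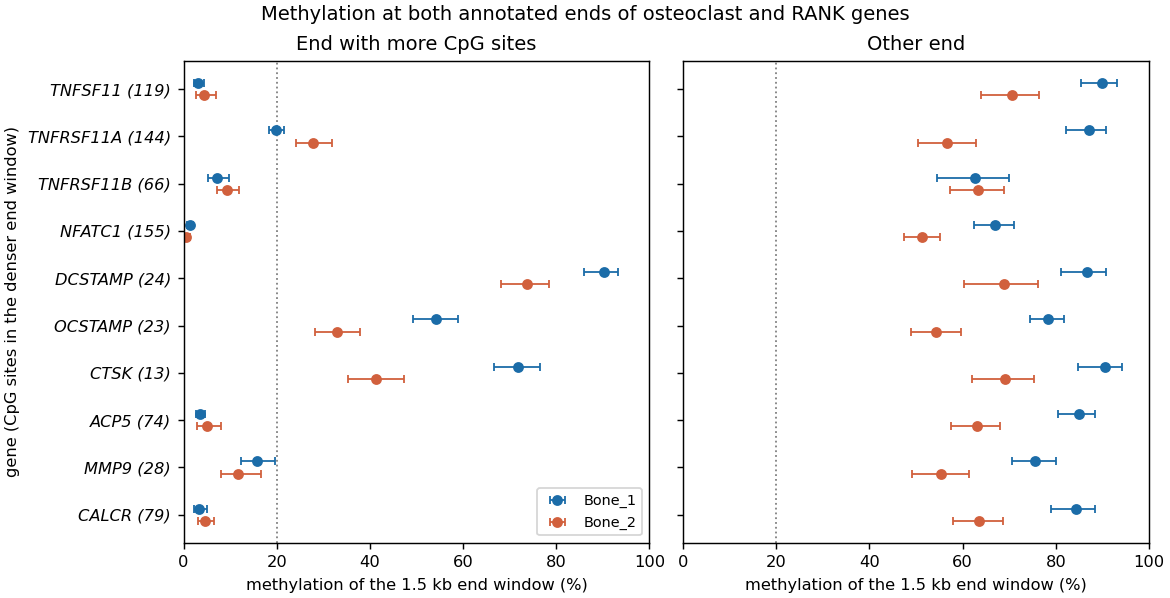
Methylation (x axis, percent) of the 1.5 kb window at the CpG-denser end (left) and at the other end (right) of each gene (y axis, with the number of CpG sites in the denser end window); points are the 2 bone samples and bars are 95% Wilson intervals. The 6 genes left of the dotted line at 20% in both samples are low at the denser end only, and DCSTAMP, CTSK and OCSTAMP lie well to the right.

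The ligand gene TNFSF11 was nearly free of methylation at its CpG-denser end. With 119 CpG sites in the window, 3.19% of 1222 calls in Bone_1 were methylated and 4.31% of 371 calls in Bone_2 (3.75% ± 0.793, SD, n = 2). The samples overlapped in their intervals, which cover counting error only. Over the 10 sites of TNFSF11 with 5 or more calls in both samples, the mean was 9.34%. Of these 10, only the site 947 bp outside held methylated calls in Bone_2. In the 300 bp core of this end (250 bp outside to 50 bp inside), the levels were 1.09% and 0.787%. The lowest 1 kb window near the gene, chr12:12701001-12702000 in the coordinates of the calls, lay across this end and held 113 CpG sites at 3.14% and 0.205% (adjusted p = 1.98e-04, Fisher's exact test). In the adjoining low window of TNFSF11, chr12:12700001-12701000, the order turned, with 5.68% of 229 calls in Bone_1 and 17.05% of 88 calls in Bone_2 (adjusted p = 0.00644, Fisher's exact test). Most of the methylated calls of Bone_2 there came from the site 947 bp outside, with 9 of 15 calls methylated, against 2 of 6 in Bone_1. From 279 to 137 bp outside, no call of Bone_2 was methylated. The part of call placement in this turn was not tested. At the other end of TNFSF11, the window was at 89.9% in Bone_1 and 70.5% in Bone_2.

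The receptor gene TNFRSF11A was higher in the 1.5 kb window, with 144 CpG sites, at 19.9% of 2191 calls in Bone_1 and 27.7% of 512 calls in Bone_2 (23.8% ± 5.57, SD, n = 2). Over the 24 sites of TNFRSF11A with 5 or more calls in both samples, the mean was 61.8%. No site inside the gene was among these 24, since each had fewer than 5 calls in Bone_2. The window was a mixture of stretches. The 72 sites inside the gene were at 1.35% in Bone_1 and at 0 of 184 calls in Bone_2. This allows a share of up to 1.63% if all calls are taken as independent. Calls on the same read are not, and each of these sites had fewer than 5 calls in Bone_2. This limit, and those given below for other counts of 0, are therefore too low. The 54 sites from the end to 500 bp outside were at 14.5% and 11.9%, and the 18 sites farther out at 83.7% and 72.8%. Bone_2 was thus the higher one in the whole window but not in any of the stretches, of which the inner and middle ones had overlapping intervals. The methylated outer stretch gave 14.8% of the window's calls in Bone_1 and 33.0% in Bone_2, so the order of the samples in the whole window went with where their calls lay. In the window chr24:60728001-60729000, across this end, the levels were 4.18% and 2.56%.

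The decoy receptor gene TNFRSF11B was at 7.20% of 486 calls in Bone_1 and 9.30% of 602 calls in Bone_2 (8.25% ± 1.49, SD, n = 2), over 66 CpG sites. In its core, 0 of 168 and 0 of 140 calls were methylated, which allows shares of up to 1.79% and 2.14%. The lowest window of TNFRSF11B, chr14:45277001-45278000, lay just inside the gene, at 0.725% of 138 calls in Bone_1 and 9.57% of 282 calls in Bone_2. By Fisher's exact test, adjusted p was 6.72e-04, or 1.54e-05 with the genome-wide odds ratio as the null. From 6 to 309 bp inside, only the sites at 169, 266 and 309 bp held methylated calls of Bone_2, 1 each. The 1 methylated call of Bone_1 lay at 309 bp. The rest of the 27 methylated calls of Bone_2 lay at the last of the window's 30 CpG sites, farther inside the gene. Bone_1 had hardly any calls at that site, so the difference in this window rested on a site read almost only in Bone_2. Whether the samples differ at that site was not tested. In the core of the TNFRSF11A end, 1.41% of 496 calls were methylated in Bone_1 and 0 of 71 in Bone_2, which allows up to 4.23%. TNFRSF11B overlaps COLEC10, a collectin gene, in the table used here, so this end cannot be ascribed to TNFRSF11B alone. Its other end was at 62.6% and 63.3%, the only other end at which Bone_2 was not lower.

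NFATC1 was the lowest of the list in the 1.5 kb window. In the core, 1.80% of 611 calls were methylated in Bone_1 and 0 of 76 in Bone_2, which allows up to 3.95%. Its place in the order of the genes is thus not set in the core. Its CpG-denser end, with 155 CpG sites, was at 1.31% of 1374 calls in Bone_1 and 0.451% of 665 calls in Bone_2 (0.881% ± 0.607, SD, n = 2). The gene had 7 windows of 1 kb under 20% in both samples within 10 kb of its span, in 2 separate stretches and a lone window. One stretch lay at the end and outside it, with 3 windows. The other lay from 3.30 to 6.30 kb inside the gene, chr24:861001-864000, where 2.97% of 2862 calls and 3.91% of 997 calls were methylated over 235 CpG sites. Between them the windows from 1 to 3 kb inside were at 64.7 and 75.4% in Bone_1 and at 48.4 and 53.4% in Bone_2, so the stretches were distinct in both samples. The lowest window of the gene, chr24:862001-863000, was in the inner stretch, with 121 CpG sites at 0.815% and 0.606%.

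**Figure D2:**
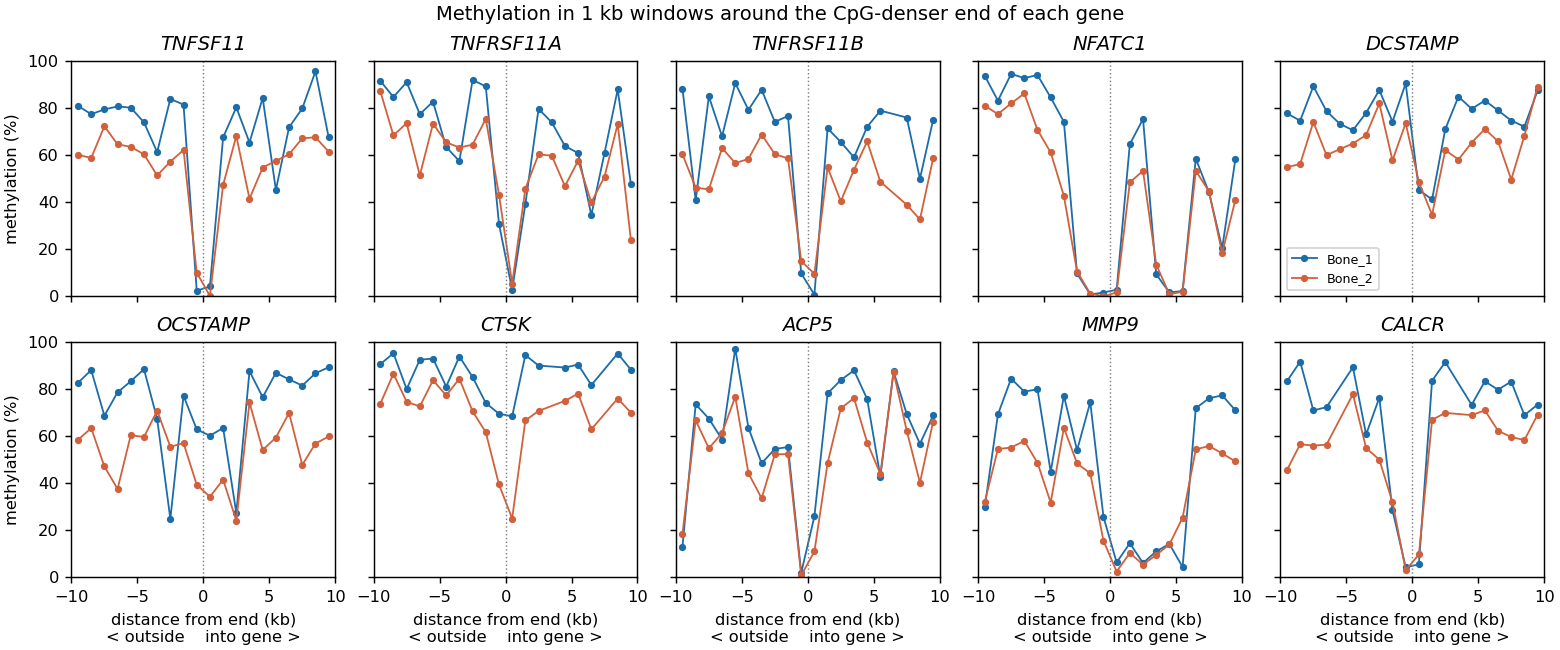
Methylation (y axis, percent) of 1 kb windows by distance from the CpG-denser end of each gene (x axis, kb, negative outside the gene and positive into it) in the 2 bone samples; windows with under 20 calls in either sample are left out. The dips at the end of TNFSF11, TNFRSF11A, TNFRSF11B, CALCR and ACP5 are narrow, NFATC1 has an inner dip as well, and the low stretch of MMP9 reaches 5 kb into the gene.

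The fusion genes had no low end. DCSTAMP encodes a membrane protein needed for fusion of precursors, and OCSTAMP a related one. At the CpG-denser end, with 24 CpG sites, DCSTAMP was at 90.3% of 257 calls in Bone_1 and 73.6% of 273 calls in Bone_2 (81.9% ± 11.8, SD, n = 2). This was the highest level of the list. Its lowest 1 kb window was inside the gene near that end, chr14:60251001-60252000, where 17.5% of 40 calls and 27.4% of 84 calls were methylated over 8 CpG sites. The samples did not differ there by Fisher's exact test (adjusted p = 0.318), and what difference could be detected with this few calls was not tested.

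OCSTAMP was intermediate at its CpG-denser end, with 54.2% of 397 calls in Bone_1 and 32.9% of 359 calls in Bone_2 (43.5% ± 15.1, SD, n = 2), and a similar number of CpG sites at both ends, 23 and 21. Single sites showed a dip within this window. The 13 sites from 114 bp outside to 370 bp inside were at 33.0% of 185 calls and 17.6% of 210 calls, with single sites from 0 to 50% and from 0 to 33.3%. The 3 sites from 442 to 475 bp inside were at 82.9% and 65.4%, and the 7 sites more than 300 bp outside at 66.9% and 48.5%. Single sites of that outer stretch ran from 25 to 100% and from 31.2 to 71.4% and so overlapped those of the dip. These stretches were chosen after the sites had been seen. In both samples the pooled level of the dip lay below those of its flanks. In the core, with 3 CpG sites, OCSTAMP was at 27.3% of 22 calls in Bone_1 and at 4 of 40 calls in Bone_2. At 2 to 3 kb outside the end the order of the samples turned, with OCSTAMP at 24.8% in Bone_1 and 55.5% in Bone_2. The lowest window near the gene, chr13:75236001-75237000, lay beyond its other end over an annotated lncRNA, at 28.4% and 18.9%.

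**Figure D3:**
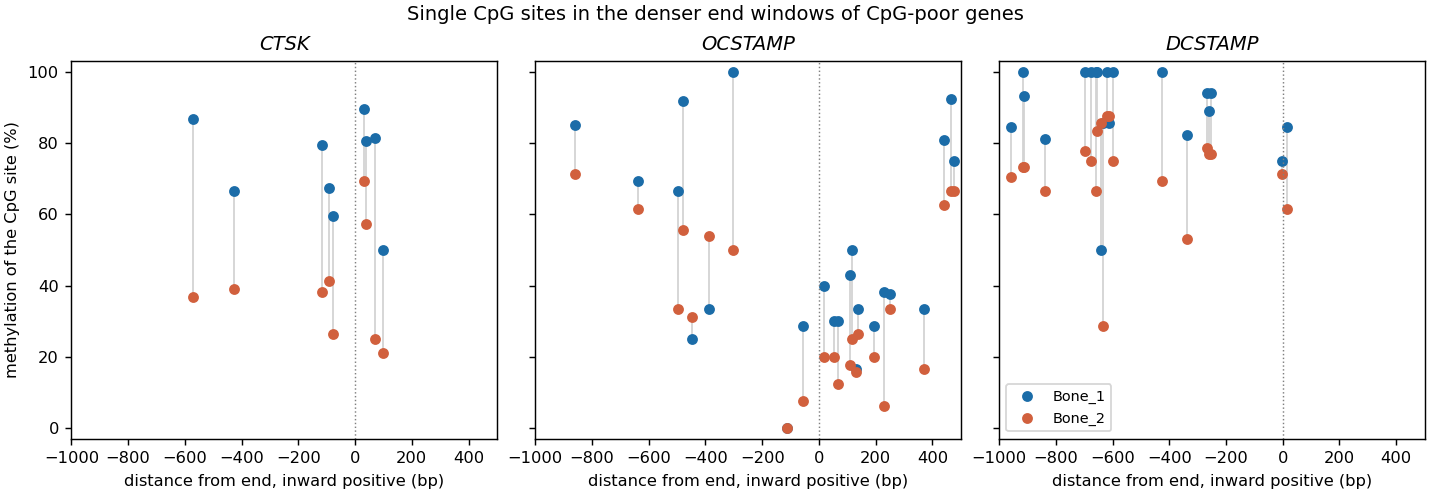
Methylation (y axis, percent) of single CpG sites (5 or more calls in both samples) in the CpG-denser end windows of CTSK, OCSTAMP and DCSTAMP, by distance from the end (x axis, bp, positive into the gene); points are the 2 bone samples and grey lines join the same site. All 9 sites of CTSK are lower in Bone_2, OCSTAMP dips around its end, and 18 of 20 sites of DCSTAMP are higher in Bone_1, with lowest sites at 50% and 28.6%.

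CTSK, which encodes cathepsin K, the collagen-degrading protease of the resorption space, had a CpG-poor end that was methylated in one sample and much less in the other. Over 13 CpG sites, 71.8% of 319 calls were methylated in Bone_1 (95% Wilson interval 66.6 to 76.4%) and 41.2% of 250 calls in Bone_2 (35.3 to 47.4%), a mean of 56.5% ± 21.6 (SD, n = 2). The difference was 30.6 points, beside a median of 18.2 points at the protein-coding ends with under 20 CpG sites. All 9 sites of CTSK that had 5 or more calls in both samples were lower in Bone_2. By Fisher's exact test against an odds ratio of 1 the adjusted p was 1.63e-12. Against the genome-wide odds ratio of 1.84, taken from all calls of both samples, it was 4.51e-04. Protein-coding ends with under 20 CpG sites had medians of 74.8% in Bone_1 and 55.3% in Bone_2. This gap is wider than that of 72.3% and 58.7% over all calls, so the ratio does not fully allow for the lower level of Bone_2 at such ends. Whether CTSK differs from its class was not tested. The window with the largest difference near the gene also lay across this end, chr3:19953001-19954000, at 68.3% of 306 calls and 27.2% of 257 calls. The lowest window near CTSK, chr3:19975001-19976000, lay outside the gene in a neighbouring one, at 31.6% and 29.9%. At the windows from 1 to 3 kb inside the end, levels were back at 90.0 to 94.4% in Bone_1 and 66.7 to 70.7% in Bone_2.

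ACP5, the gene of tartrate-resistant acid phosphatase, which is the classical stain for osteoclasts, was low at its CpG-denser end. With 74 CpG sites, 3.48% of 1438 calls were methylated in Bone_1 and 4.95% of 283 calls in Bone_2 (4.21% ± 1.04, SD, n = 2). Over the 20 sites of ACP5 with 5 or more calls in both samples, the mean was 8.05%. The low stretch was narrow. In the window chr7:15915001-15916000, across and outside the end, 53 CpG sites were at 1.95% and 0.885%, and at 1 to 2 kb inside the gene ACP5 levels were 78.1% and 48.5%. The other 2 low windows near ACP5 lay outside the gene, 12.5 and 9.48 kb from this end on either side.

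MMP9, the gene of gelatinase B, which is made by osteoclasts and also stored in granules of neutrophils, was low over the first 5 kb inside its CpG-denser end and not only at the end. Its CpG-denser end, with 28 CpG sites, was at 15.7% of 388 calls in Bone_1 and 11.7% of 223 calls in Bone_2 (13.7% ± 2.87, SD, n = 2). The 12 sites inside the gene were at 13.5% and 5.68%, and the 16 outside at 25.7% and 15.6%. The inside sites held 82.0% of the window's calls in Bone_1 and 39.5% in Bone_2. In the core, 2.33% of 43 calls were methylated in Bone_1 and 0 of 20 in Bone_2, which allows up to 15.0%. Over the whole body of 7312 bp, with 330 CpG sites, 11.43% of 8720 calls were methylated in Bone_1 and 11.98% of 2630 calls in Bone_2 (11.7% ± 0.384, SD, n = 2). Among the 10215 protein-coding genes with at least 300 CpG sites in the body, 54 had a mean as low as this, MMP9 included. The low stretch, chr13:74747001-74752000, spanned 5 consecutive windows with 276 CpG sites at 9.22% and 7.60%. In the next window, from 5 to 6 kb inside the CpG-denser end, MMP9 was at 4.36% in Bone_1 and 25.4% in Bone_2. In the windows from 6 to 8 kb inside that end, beside and beyond the other end, levels were 71.9 to 76.1% in Bone_1 and 54.4 to 55.8% in Bone_2. The lowest window within 10 kb of MMP9, chr13:74759001-74760000, lay in the neighbouring SLC12A5, a neuronal transporter gene, at 1.40% and 1.03%.

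CALCR, the receptor through which calcitonin restrains osteoclasts, was low at its CpG-denser end in both samples. With 79 CpG sites, the level was 3.31% of 604 calls in Bone_1 and 4.50% of 533 calls in Bone_2 (3.91% ± 0.843, SD, n = 2). In the core, 2.56% of 78 calls were methylated in Bone_1 and 0 of 44 in Bone_2, which allows up to 6.82%. The lowest window, chr4:10893001-10894000, was at 4.51% and 3.81%. The low stretch covered 2 windows, chr4:10893001-10895000, with 81 CpG sites at 7.19% and 8.02%. The rest of the gene, the longest of the list at 111286 bp, was methylated, and no further window within it was under 20% in both samples.

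Outside MMP9, gene bodies were methylated at levels from 69.4 to 86.2% in Bone_1 and from 46.3 to 67.1% in Bone_2. The medians of the 10 were 76.0% and 57.5%, beside 72.1% and 58.8% over protein-coding genes. MMP9 was the 1 body of 10 under 20% in both samples, beside 4.04% of all annotated bodies. CTSK had the highest body level, 86.2% of 1269 calls and 67.1% of 1637 calls (76.6% ± 13.5, SD, n = 2), and 92.4% of protein-coding bodies were lower. ACP5 had the lowest after MMP9, 69.4% and 46.3% (57.9% ± 16.3, SD, n = 2). Of its 130 CpG sites, part lay in the low stretch at its end.

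**Figure D4:**
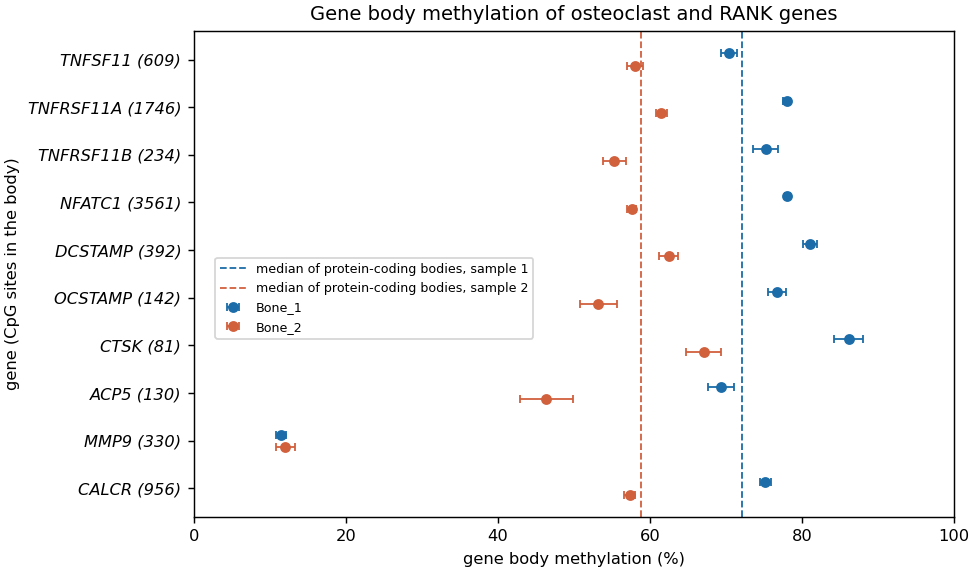
Gene body methylation (x axis, percent) of each gene (y axis, with its number of CpG sites) in the 2 bone samples; bars are 95% Wilson intervals and dashed lines the medians of protein-coding bodies in each sample. MMP9 lies near 12% in both samples, and in the other 9 genes Bone_2 is the lower.

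To compare the samples, methylated and unmethylated calls of a region were set against each other in Fisher's exact test, two-sided, with adjustment over all regions of that kind. The test compares these libraries, has no replicate behind it and treats calls on the same read as independent, so its p-values are too small. At the CpG-denser end, 4 of the 10 genes differed at an adjusted p under 0.05, beside 69.4% of all genes. DCSTAMP, OCSTAMP and CTSK were higher in Bone_1 and TNFRSF11A in Bone_2, the last without being higher there in any of its stretches. Against the genome-wide odds ratio, 7 of 10 differed, beside 52.8%. Of these, CTSK and DCSTAMP were higher in Bone_1 relative to that ratio. The other 5, all with low ends or, in TNFRSF11A, a partly low one, were higher in Bone_2 relative to it. Of the 5, TNFSF11, TNFRSF11B, ACP5 and CALCR did not differ against an odds ratio of 1. All 5 had 60 or more CpG sites, a class whose protein-coding ends had medians of 3.67% in Bone_1 and 6.89% in Bone_2. The genome-wide ratio thus does not describe the usual order of the samples at such ends. Whether the 5, CTSK or DCSTAMP differ from their classes was not tested. The bodies of 9 of 10 genes differed, all 9 higher in Bone_1, beside 86.6% of all bodies. MMP9 did not (difference -0.544 points, adjusted p = 0.471, Fisher's exact test). Within its body, Bone_1 was higher over the 5 windows of the low stretch (9.22% and 7.60%) and Bone_2 in the next window inward (4.36% and 25.4%). Against the genome-wide odds ratio, 9 of 10 bodies differed, beside 71.1%, and TNFSF11 was the one that did not. Of these 9, MMP9 was higher in Bone_2 relative to that ratio and the others were higher in Bone_1. The share of ends that differed was thus below that of all genes against an odds ratio of 1 and above it against the genome-wide ratio, in a list of 10.

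In the 1 kb windows over the genes and 10 kb to either side, 562 of 609 had 20 or more calls in both samples. Of these, 24 were under 20% in both, which is 4.27%, beside 1.5% of all windows on chromosomes 1 to 29 and X. All those windows had a median of 9 CpG sites and lay mostly away from gene ends. A share for windows around genes with like CpG numbers was not computed, so the 2 shares are not like for like. NFATC1 and MMP9 held 7 each, ACP5 3, TNFSF11, TNFRSF11B and CALCR 2 each, TNFRSF11A 1, and CTSK, DCSTAMP and OCSTAMP none. Near MMP9 2 of the 7 lay in SLC12A5 or beside it, more than 4 kb outside MMP9. The median window was at 79.9% in Bone_1 and 60.4% in Bone_2, close to the 79.2% and 60.5% of all windows. By Fisher's exact test 404 windows differed, which is 71.9%, beside 65.8% of all windows, and 396 of them were higher in Bone_1. Against the genome-wide odds ratio, 160 differed, which is 28.5%, beside 20.5%.

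The largest difference between the samples near any of the 10 genes was in the body of NFATC1. The window chr24:787001-788000, with 75 CpG sites, was at 89.9% of 2289 calls in Bone_1 and 35.4% of 192 calls in Bone_2 (62.7% ± 38.5, SD, n = 2, adjusted p = 8.67e-61 by Fisher's exact test and 2.29e-37 against the genome-wide odds ratio). Calls were more than 10 times fewer in Bone_2, and the part of this depth in the difference was not tested. The neighbouring windows were at 76.7% and 89.0% in Bone_1 and at 60.5% and 57.3% in Bone_2, so NFATC1 was lower in Bone_2 in these as well, by less. At 1 window farther, chr24:785001-786000, the samples were at 20.9% and 18.5%. In CALCR the window chr4:10865001-10866000, inside the gene with 5 CpG sites, was at 94.9% of 78 calls and 50.4% of 135 calls. TNFRSF11A, TNFSF11, DCSTAMP and OCSTAMP had largest differences of 42.0, 35.0, 36.7 and 37.8 points, and TNFRSF11B, MMP9 and ACP5 of 39.5, 35.1 and 28.8 points. In each of these, Bone_1 was the higher. Those of OCSTAMP and TNFRSF11B lay in the neighbouring genes SLC13A3 and COLEC10.

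The partners of these genes were taken as 79 genes in 5 lists by role, chosen with earlier results of these data known. At the CpG-denser end, 50 of the 79 were under 20% in both samples, beside the 34.9% of all annotated and 51.1% of protein-coding genes given above. By CpG number, 49 of the 56 genes with 60 or more CpG sites were low, beside 79.8% of the protein-coding genes of that class, 1 of 17 with 20 to 59 sites, beside 20.1%, and 0 of 6 with fewer, beside 0.495%. Among signal transducers downstream of RANK 17 of 23 were low. TRAF6, the adaptor that RANK recruits, was at 15.2% and 16.6% (15.9% ± 0.950, SD, n = 2). CHUK, an NF-kappaB kinase subunit, was the lowest at 0.720% and 0 of 1030 calls, and NFKB1, an NF-kappaB subunit, the highest at 88.7% and 64.4% (76.6% ± 17.2, SD, n = 2) with 21 CpG sites.

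In the resorption machinery 12 of 17 genes were low. SLC4A2, the anion exchanger that balances acid secretion, was the lowest, at 0.805% and 0.144%, and ITGB3, the beta subunit of the osteoclast integrin, was the highest, at 85.0% and 70.4%. Its other end was lower, at 46.6% and 39.5%. Among precursor transcription factors and the growth factor receptor 9 of 13 were low. SPI1, which encodes PU.1, was at 44.2% and 35.4% (39.8% ± 6.24, SD, n = 2). CSF1R, the receptor of the growth factor that keeps precursors alive, was at 85.1% and 75.6% at the CpG-denser end and at 60.7% and 58.4% at the other end. RUNX1 had 18 CpG sites at each end and so no CpG-denser one, with one end at 87.7% and 82.7% and the other at 25.6% and 31.9%.

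Among genes of ITAM co-stimulation and calcium signalling, which RANK signalling needs for NFATC1 induction, 7 of 14 were low. The calcineurin subunit gene PPP3R1 was the lowest at 0.613% and 0.466%, and the kinase gene CAMK4 the highest at 91.4% and 85.7% (88.5% ± 4.05, SD, n = 2). Among partners of the calcitonin and RANKL axis 5 of 12 were low, from WNT5A, a ligand that promotes osteoclast formation, at 0.852% and 0.222% to the cytokine gene IL1B at 81.7% and 68.6%, whose other end was at 33.9% and 34.4%. Of the 79 genes, 18 differed with Bone_1 higher and 25 with Bone_2 higher by Fisher's exact test, beside 69.4% of all ends in either direction. Against the genome-wide odds ratio 52 of the 79 differed, beside 52.8%.

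**Figure D5:**
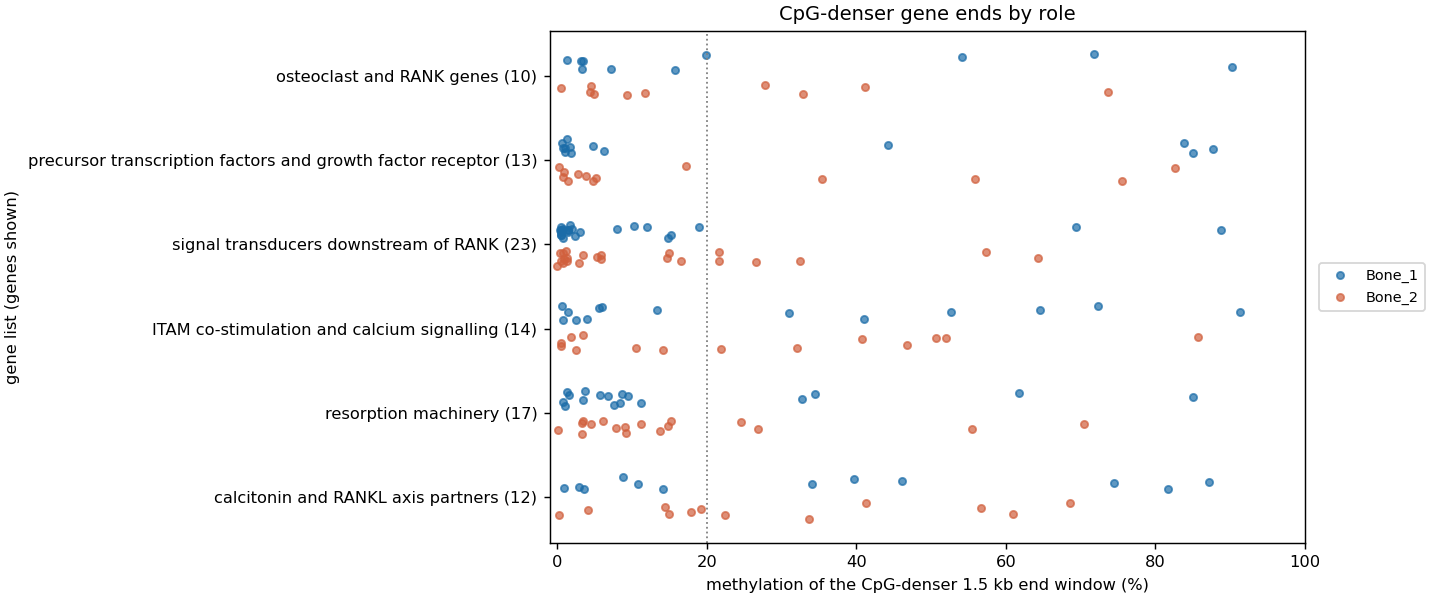
Methylation (x axis, percent) of the CpG-denser 1.5 kb end window of each gene, by role (y axis, number of genes in brackets), in the 2 bone samples; points are spread vertically at random within a row for visibility. In both samples 17 of 23 signal transducers, 12 of 17 resorption genes and 9 of 13 precursor genes lie left of the dotted line at 20%, and each list has genes well to the right.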

How the data were processed

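Reads were trimmed and mapped with Bismark by the authors, and duplicates were removed. The deposited values are raw counts, per CpG cytosine and strand, of methylated and of unmethylated calls. The processing notes of the submitters list FastQC 0.11.5, Trim Galore 0.4.5, Bowtie2 and Bismark 0.19.0 with build ARS-UCD1.2, while the paper states another build. Conversion checks were not analysed here.

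Both strands were summed into 27138930 CpG sites of chromosomes 1 to 29 and X. The level of a region is the percentage of its calls that were methylated. Genes were placed with the ARS-UCD2.0 table, which gives no strand and no transcripts, so the planned promoter window was read at both ends. The genes and lists were chosen with earlier results of these data known. Named were the 10 genes, their lowest and most different windows with at least 3 CpG sites, and the lowest and highest gene of each list plus SPI1, CSF1R and TRAF6. One gene that this rule names is not reported here. Intervals are 95% Wilson intervals and floors after a count of 0 are 3 calls. Both cover counting error only, since reads carry no molecular identifiers. Both also treat calls on the same read as independent, so the intervals are too narrow and the floors too low.

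Fisher's exact tests were adjusted by Benjamini-Hochberg. Tested on simulated data at the depths of 35375 CpG-denser ends, with 200 changed, they recovered 96% of changes of 30 points and 100% of 50 points against an odds ratio of 1, and 84% and 98.5% against the genome-wide ratio, with 6 to 12 unchanged ends called. In these simulated data the calls of a window were drawn independently, without calls that share a read and without uneven placement of calls. The rates therefore do not carry over to the real calls. Software was matplotlib 3.10.9, numba 0.67.0, numpy 2.4.6, pandas 2.3.3, pyarrow 21.0.0 and scipy 1.17.1 under Python 3.11.15.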

Additional observations from a re-analysis of the deposited data

How the results depend on the processing

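The median over the 10 genes of the mean level at the CpG-denser end was 10.97%. It was 1.22% in the 300 bp core, 9.76% with 1000 bp to either side, 12.2% with only sites of at least 5 calls in each sample, 9.98% as an unweighted mean over those sites, and from 10.5 to 11.5% without one replicate. With only sites of at least 5 calls, TNFRSF11A moved from 23.8 to 61.8%, TNFSF11 from 3.75 to 9.34% and ACP5 from 4.21 to 8.05%. This kept 24 of 144 sites in TNFRSF11A, none of them inside the gene, 10 of 119 in TNFSF11 and 20 of 74 in ACP5. In the core OCSTAMP moved from 43.5 to 18.6%, ACP5 from 4.21 to 1.70% and TNFSF11 from 3.75 to 0.941%. In the cores of TNFRSF11A, TNFRSF11B, NFATC1, MMP9 and CALCR 1 or both samples had no methylated call, so the median of 1.22% takes these counts of 0 as exact. With 1000 bp to either side NFATC1 moved from 0.881 to 2.21%, ACP5 to 9.63%, MMP9 to 6.52% and CALCR to 5.997%. As unweighted means TNFRSF11A was at 61.7%, TNFSF11 at 5.92% and ACP5 at 7.04%. At the other end, an alternative chosen after seeing the data, the median was 72.9%, with 0 of the 10 genes and 3 of the 79 partner genes under 20% in both samples in place of 6 and 50. All other alternatives kept these counts within 1.5 times, from 5 to 7 and from 37 to 58, as they did the 24 low windows (16 to 36). The median body level was 65.8%, and 57.5 to 76.0% without one replicate. Of the ends, 7 differed against the genome-wide odds ratio and 2 with a difference of at least 20 points, in place of 4. The bodies that differed were 3 with at least 20 points, in place of 9, and the windows 160 and 191, in place of 404. The causes of these shifts were not tested. With at least 50 calls per region the counts were 4, 9 and 379. No paired analysis was possible because there is only 1 group. Other transcript starts were not run, since the table gives no transcripts. Depth limits the cores. With calls taken as independent, a count of 0 in Bone_2 allows up to 6.82% in CALCR (44 calls) and 15.0% in MMP9 (20 calls), and more where calls share a read.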

Other observations

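Some partner genes of the osteoclast differed between the bone samples at the CpG-denser end in opposite directions. They were picked after their values were seen, and each value is that of the 1.5 kb end window. In Bone_2 the level was higher for MAPK8, the gene of the kinase JNK1, at 14.9% of 765 calls against 1.49% of 2352 calls (Fisher's exact test, adjusted p = 1.79e-40), and for SNX10, a sorting nexin gene mutated in osteopetrosis, at 26.9% of 655 calls against 9.40% of 1756 calls (Fisher's exact test, adjusted p = 8.45e-24). It was lower for ATP6V1B2, a proton pump subunit gene, at 15.2% of 481 calls against 34.5% of 847 calls (Fisher's exact test, adjusted p = 8.90e-14), and for the cytokine gene IL6 at 14.9% of 363 calls against 34.1% of 249 calls (Fisher's exact test, adjusted p = 1.66e-07). By Fisher's exact test against the genome-wide odds ratio, adjusted p was 1.21e-62 for MAPK8, 1.01e-49 for SNX10, 0.00295 for ATP6V1B2 and 0.0380 for IL6. MAPK8 and SNX10 had 129 and 81 CpG sites, a class in which that ratio does not describe the usual order of the samples. ATP6V1B2 and IL6 had 58 and 31 CpG sites. Protein-coding ends with 20 to 59 sites were lower in Bone_2 by a median of 12.4 points. Whether any of these genes differs from its class was not tested. As in TNFRSF11A, the level of a whole window also depends on where the calls lie in it, and its part in these differences was not tested.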
